A study of Mus musculus with 2 samples.

Results

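The catalytic subunits of the proteasome were examined in mouse fetal thymic stromal cells grown either in reaggregation thymus organ culture (RTOC) or in 2D culture. Members were chosen by name: every non-control probe of the array whose gene is Psmb5, Psmb6, Psmb7, Psmb8, Psmb9, Psmb10 or Psmb11. This gave 7 genes with 9 probes, of 19505 named genes and 41174 probes. Psmb8 and Psmb11 had 2 probes each, and Psmb11 carries its older name 5830406J20Rik on the array. RNA was measured on 2 two-colour arrays, each holding RTOC RNA labelled with Cy5 and 2D culture RNA labelled with Cy3. On both arrays the cells came from C57BL/6 fetuses, from thymic lobes held in organ culture with 1.35 mM deoxyguanosine, a nucleoside that depletes thymocytes, then dispersed with enzyme and grown for 72 h. One array held cells of E14.5 fetuses after 8 days of organ culture, and the other cells of E15.5 fetuses after 9 days. The dyes were not swapped, and the number of fetuses behind each RNA was not given in the sources used here. Each stage had its own array and its own organ culture time, and these cannot be told apart, so both arrays were treated as replicates (n = 2) of 1 comparison, that of RTOC with 2D culture. The spread between the arrays covers these differences and may be partly technical.

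The proteasome is a barrel of stacked rings that degrades proteins, and its inner rings carry the catalytic positions β1, β2 and β5. In most cells these positions are filled by the constitutive subunits Psmb6 (β1), Psmb7 (β2) and Psmb5 (β5). In the immunoproteasome, which interferon gamma induces, they are replaced by Psmb9 (β1i), Psmb10 (β2i) and Psmb8 (β5i). The thymoproteasome of cortical thymic epithelial cells carries β1i and β2i together with Psmb11 (β5t), and it makes the peptides on which CD8+ T cells are positively selected.

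All 9 probes were 60 bases long, had 1 spot each, were well above background in all 4 channels, and were not saturated in any channel. Well above background over all probes were between 53.1% and 60.9% of the probes of a channel. The probes of the constitutive and immuno forms of the β5 and β1 positions lay on matching stretches of the related genes, so their bases are shown first, to let the likeness of the paired probes be seen. Capitals mark the bases that were identical in an alignment without gaps, which covered 50 bases for Psmb5 and Psmb8 and 48 bases for Psmb6 and Psmb9. The Psmb8 probe shown is the dimmer one.
Psmb5: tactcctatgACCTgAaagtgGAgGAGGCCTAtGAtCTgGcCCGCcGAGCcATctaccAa
Psmb8: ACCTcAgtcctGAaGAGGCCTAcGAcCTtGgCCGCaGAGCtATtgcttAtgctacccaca
Psmb6: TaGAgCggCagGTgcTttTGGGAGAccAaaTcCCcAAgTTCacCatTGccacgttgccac
Psmb9: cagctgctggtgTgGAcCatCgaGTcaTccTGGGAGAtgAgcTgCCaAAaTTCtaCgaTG
Of the 50 aligned bases of Psmb5 and Psmb8, 31 were identical (62.0%), with a longest shared run of 8 bases. Of the 48 aligned bases of Psmb6 and Psmb9, 27 were identical (56.2%), with a longest run of 7 bases. No other probe of the array shared a run of 20 bases with any of the 9 probes. Psmb11 was read by 2 probes and Psmb10 by 1, of which the middle 30 bases (bases 16 to 45) identify the measured stretch.
Psmb11, brighter probe: gatgtctctgtccaacatgttctgatgata
Psmb11, dimmer probe: ctgtgtaaatacatgaaccaggaaaacatt
Psmb10: aactgtgcaggccatggaggtggaatgaag

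Psmb9, Psmb10 and Psmb11 were higher in RTOC than in 2D culture, by 15.1-fold, 6.42-fold and 14.97-fold, while Psmb5, Psmb6, Psmb7 and Psmb8 did not pass the test. The 3 called genes encode β1i, β2i and β5t, the set of catalytic subunits that make up the thymoproteasome. They were 3 of 7 genes, whereas 16.6% of the 16136 genes tested by their brightest probe were called higher in RTOC. Of the 9 probes 4 were called higher, beside 15.2% of all probes tested. None of the 7 was called lower by limma, where 12% of the genes were, and none was lower at an unadjusted p under 0.05 either; at that level 4 of the 7 were higher. The median log2 ratio of the 7 was 0.79, beside 0.05 over all genes tested. A ratio is given as log2 of the RTOC signal over the 2D signal after quantile normalization of the 4 channels, as mean ± SD over the 2 arrays, and was tested against 0 by limma with Benjamini-Hochberg adjustment over 23685 probes and a threshold of 0.05.

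Psmb11, the only catalytic subunit particular to the thymoproteasome, had normalized signals of 3367 in 2D culture and 55751 in RTOC at E14.5, and of 4102 and 55538 at E15.5. Its RTOC signals were almost equal on the 2 arrays, and both lay far above the 2D signals. The log2 ratios were 4.05 and 3.76, with a mean of 3.90 ± 0.21 (SD, n = 2; SE 0.26, 95% interval 3.26 to 4.55; limma, adjusted p = 0.00161). The dimmer probe read 199 and 4419 at E14.5, and 203 and 4125 at E15.5. Its mean raw signals in 2D culture were 68.8 and 63.0 over local backgrounds of 37 and 33, so the 2D level of this probe rested on a small excess over background. Its log2 ratio of 4.41 ± 0.09 fell to 2.93 with normexp background correction and loess, whereas that of the brighter probe was 3.72 there. Both probes were called higher in either case.

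Psmb9, the β1i subunit, which takes the place of Psmb6, read 1751 in 2D culture and 30195 in RTOC at E14.5, and 1870 and 24730 at E15.5. The 2D signals of the 2 arrays were close, and neither culture overlapped the other. The log2 ratio was 3.92 ± 0.27 (SD, n = 2; SE 0.26, 95% interval 3.26 to 4.57; limma, adjusted p = 0.00161). Psmb10, the β2i subunit, which takes the place of Psmb7, read 6414 and 45152 at E14.5, and 5905 and 34548 at E15.5. Its log2 ratio was 2.68 ± 0.19 (SD, n = 2; SE 0.26, 95% interval 2.04 to 3.32; limma, adjusted p = 0.00266). Psmb9 and the brighter Psmb11 probe had almost the same ratio, with a difference of -0.01 ± 0.07 (Psmb11 minus Psmb9). Under the other scalings that difference ran from 0.01 to 0.24, and the dimmer Psmb11 probe had a ratio of 4.41. Psmb9 exceeded Psmb10 by 1.23 ± 0.08, and the brighter Psmb11 probe exceeded Psmb10 by 1.22 ± 0.02. With 2 arrays an exact sign-flip test of such a difference cannot go below p = 0.5, so the differences between subunits are given as descriptions. None of the 3 was called when dim probes were kept in the fit, or by the methods' t-test once its p-values were adjusted by Benjamini-Hochberg.

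**Figure D1:**
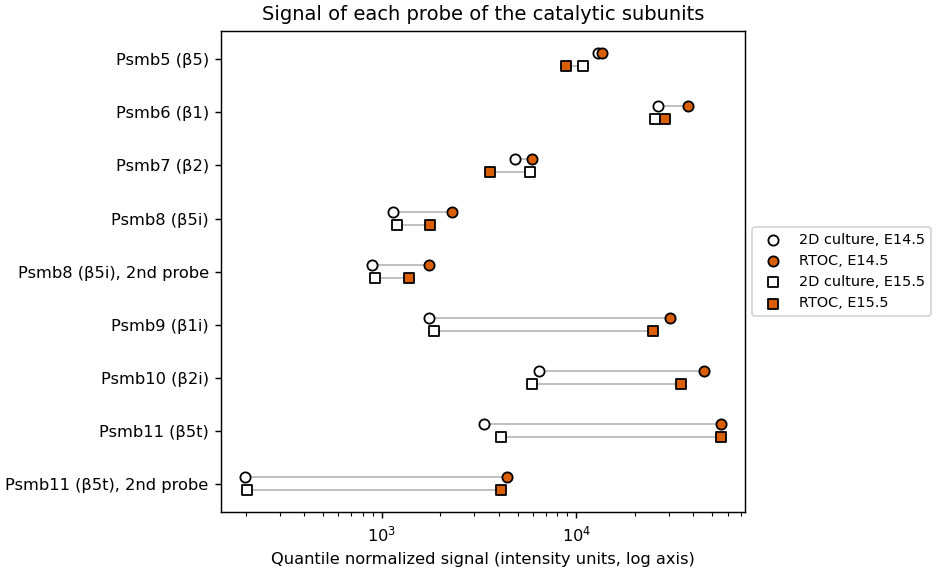
Quantile normalized signal (intensity units, log axis) of each probe of the 7 catalytic subunits in 2D culture (white) and RTOC (orange), at E14.5 (circles) and E15.5 (squares), 1 point per channel. The lines are long for Psmb9, Psmb10 and Psmb11, such as 3367 to 55751 for the brighter Psmb11 probe at E14.5, and short for Psmb5, Psmb6 and Psmb7; signals of different probes cannot be ranked against each other.

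Psmb8, the β5i subunit, had a smaller ratio than the other immunosubunits on both arrays. Its brighter probe read 1146 in 2D culture and 2304 in RTOC at E14.5, and 1194 and 1784 at E15.5. The RTOC signal was the higher one on both arrays, and the log2 ratio of 0.79 ± 0.30 (SD, n = 2; SE 0.27, 95% interval 0.13 to 1.46; limma, adjusted p = 0.0761) did not pass the test. The dimmer probe gave 0.78 ± 0.28, so both probes of the gene read the same ratio within their spread. The ratio of Psmb8 lay below that of Psmb9 by 3.12 ± 0.03 and below that of Psmb10 by 1.89 ± 0.11. With a variance trend and robust fitting in limma, the adjusted p of the brighter probe was 0.0471.

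Of the constitutive subunits, Psmb5 (β5) read 12952 in 2D culture and 13607 in RTOC at E14.5, and 10792 and 8882 at E15.5. RTOC was the higher culture on the E14.5 array and the lower one on the E15.5 array, and the log2 ratio was -0.10 ± 0.25 (SD, n = 2; 95% interval -0.76 to 0.55; limma, adjusted p = 0.785). Psmb6 (β1) read 26461 and 37735 at E14.5, and 25264 and 28764 at E15.5, with a log2 ratio of 0.35 ± 0.23 (95% interval -0.30 to 0.997; limma, adjusted p = 0.349). Psmb7 (β2) read 4852 and 5928 at E14.5, and 5766 and 3623 at E15.5, and its 2 arrays disagreed most, with a log2 ratio of -0.19 ± 0.68 (95% interval -0.998 to 0.62; limma, adjusted p = 0.682). The intervals leave room for a level up to 1.997-fold higher in RTOC for Psmb6 and up to 1.997-fold lower for Psmb7, so the test does not show these levels to be equal in the cultures. The mean ratio of Psmb5 turned to 0.07 when normexp with median centring replaced the quantile normalization.

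**Figure D2:**
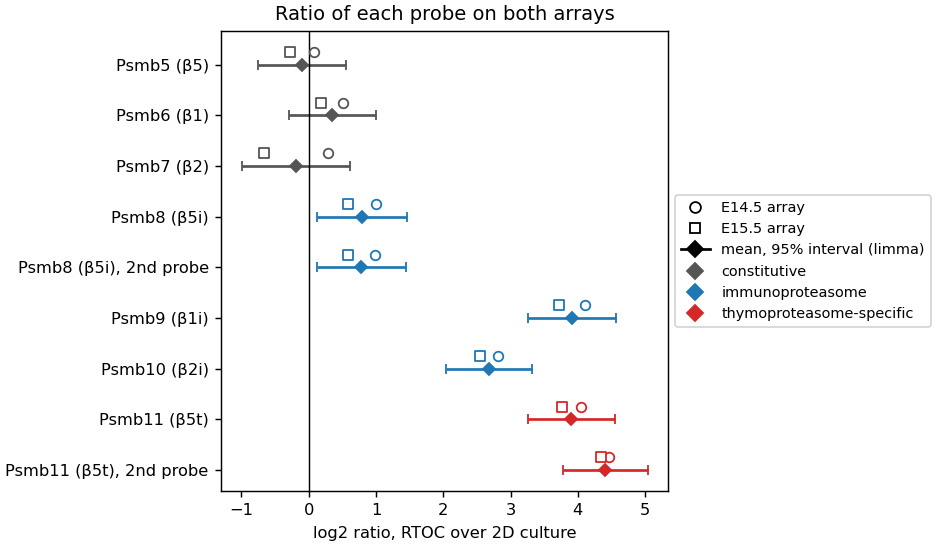
Log2 ratio of RTOC over 2D culture for each probe, with the E14.5 array as a circle, the E15.5 array as a square, and the mean with its 95% interval from limma as a diamond with a bar. The probes of Psmb9, Psmb10 and Psmb11 have intervals that start at 2.04 or above, while those of Psmb5, Psmb6 and Psmb7 span 0 and those of Psmb8 start at 0.13 and 0.12.

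At the β5 position, the ratio of Psmb11 exceeded that of Psmb5 by 4.01 ± 0.04 and that of Psmb8 by 3.11 ± 0.10 (mean ± SD of the difference of log2 ratios, n = 2). The ratio of Psmb8 exceeded that of Psmb5 by 0.90 ± 0.05. At the β1 position Psmb9 exceeded Psmb6 by 3.57 ± 0.04, and at the β2 position Psmb10 exceeded Psmb7 by 2.87 ± 0.49. The order of the 3 β5 subunits was thus the same on both arrays, and in each of these 5 pairs the SD of the difference was smaller than the difference. Under the other scalings the Psmb11 to Psmb5 difference ran from 3.88 to 4.01, the Psmb9 to Psmb6 difference from 3.09 to 3.59, and the Psmb10 to Psmb7 difference from 2.78 to 2.88. Ranked by mean ratio among 16136 genes, Psmb9 had 118 genes above it, Psmb11 had 124, Psmb10 had 502 and Psmb8 had 3580. Psmb6, Psmb5 and Psmb7 had 5944, 9305 and 9982 genes above them.

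The gene nearest to Psmb11 in its pair of ratios was Psmb9, at a Euclidean distance of 0.068 over the 2 arrays, among 13963 genes whose brightest probe was well above background in all channels. Also near were the unnamed transcript AK039958 (0.098), Rgcc, a regulator of the cell cycle (0.099), and Neurl2 (0.146). With 2 arrays, this likeness means only a similar ratio on each, for the brighter Psmb11 probe after quantile normalization. The dimmer Psmb11 probe had log2 ratios of 4.47 and 4.35.

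**Figure D3:**
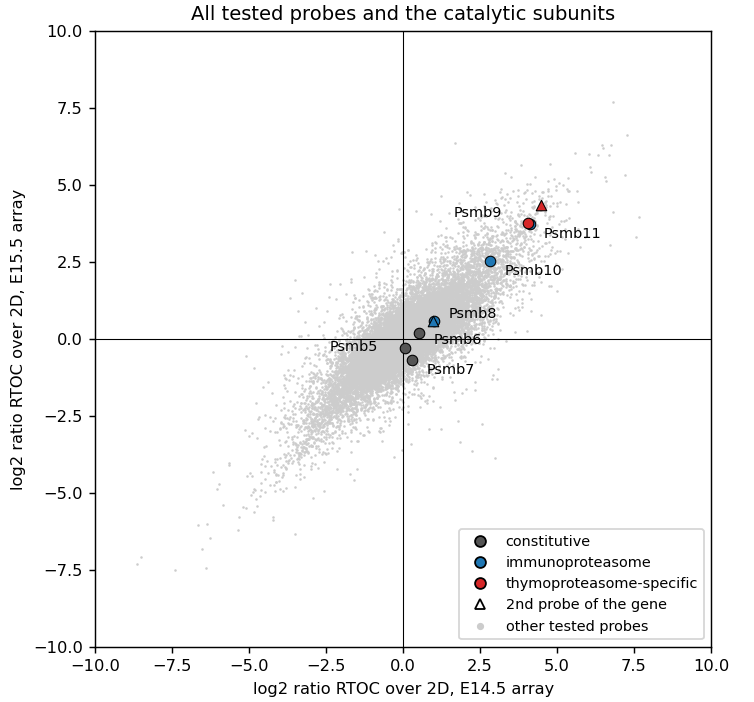
Log2 ratio of RTOC over 2D culture on the E14.5 array (x axis) against the E15.5 array (y axis) for all tested probes (grey) and the 9 probes of the catalytic subunits (coloured by class, second probes as triangles). Psmb9 and the brighter Psmb11 probe nearly coincide near 4.11 and 3.72, Psmb10 lies at 2.82 and 2.55, and the constitutive subunits lie near 0.

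On all 9 probes the ratio was higher on the E14.5 array than on the E15.5 array, beside 49.8% of all tested probes. The gaps ran from 0.12 at the dimmer Psmb11 probe to 0.96 at Psmb7. With normexp and median centring it was not higher at E14.5 for Psmb5 (0.03 and 0.12) and the brighter Psmb11 probe (3.981 and 3.986). Within RTOC, the E14.5 signal exceeded the E15.5 signal by 0.62 for Psmb5, 0.71 for Psmb7 and 0.29 for Psmb9 on the log2 scale, but by 0.01 for the brighter Psmb11 probe. Within 2D culture Psmb5 differed by 0.26 in the same direction, while Psmb7 and Psmb11 were lower at E14.5, by -0.25 and -0.28. These are differences between single channels and have no test. Of the other 12 core subunits, 7 had a higher ratio at E14.5, with a median gap of 0.44, beside 0.35 for the catalytic subunits.

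The genes of β5i and β1i lie close together in the MHC region of chromosome 17 (GRCm38.p6), with Psmb9 at 34182030 to 34187330 and Psmb8 at 34198195 to 34201454. Tap1, a subunit of the peptide transporter that feeds class I molecules, is the only protein-coding gene between them. It starts 225 bp from the start of Psmb9 and ends 969 bp before Psmb8. Its log2 ratios were 0.34 and 0.51 (limma, adjusted p = 0.250), below those of Psmb9 by 3.49 ± 0.39. The other transporter gene, Tap2, lies 3024 bp beyond Psmb8 and had a ratio of 0.82 ± 0.28 (limma, adjusted p = 0.0682), which differed from that of Psmb8 by -0.03 ± 0.03 (Psmb8 minus Tap2). The large ratio of Psmb9 was therefore not shared by Tap1. Tap1 and Tap2 were singled out after their values had been seen. Psmb11 lies on chromosome 14 at 54625310 to 54629556, Psmb5 beside it at 54614120 to 54617995, Psmb10 on chromosome 8 at 105935728 to 105938392, Psmb6 on chromosome 11 at 70525324 to 70527858, and Psmb7 on chromosome 2 at 38588046 to 38643952.

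The study asks which elements drive β5t, so the sequences before the gene starts are shown. They cover the 3 genes called higher in RTOC and Psmb8, which did not pass. They are RefSeq promoter windows of GRCm38.p6, on the strand of the gene, with 250 bases before the start and 225 for Psmb9, where Tap1 begins. Psmb11 is at chr14:54625060-54625309 on the plus strand, Psmb9 at chr17:34187331-34187555 on the minus strand, Psmb10 at chr8:105938393-105938642 on the minus strand, and Psmb8 at chr17:34197945-34198194 on the plus strand. Capitals mark ACGC on either strand (GCGT where it is on the other one), the core of the Foxn1 motif, and in Psmb8 also TTCNNNGAA, a STAT motif.
Psmb11: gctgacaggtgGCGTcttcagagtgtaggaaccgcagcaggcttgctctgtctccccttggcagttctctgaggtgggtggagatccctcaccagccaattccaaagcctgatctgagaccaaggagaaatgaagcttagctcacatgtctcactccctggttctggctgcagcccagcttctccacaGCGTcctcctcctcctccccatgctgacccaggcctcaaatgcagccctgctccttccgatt
Psmb9: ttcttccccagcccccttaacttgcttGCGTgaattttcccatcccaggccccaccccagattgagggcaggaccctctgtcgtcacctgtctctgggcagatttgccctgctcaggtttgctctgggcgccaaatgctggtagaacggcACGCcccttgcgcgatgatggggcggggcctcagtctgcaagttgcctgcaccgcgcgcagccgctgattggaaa
Psmb10: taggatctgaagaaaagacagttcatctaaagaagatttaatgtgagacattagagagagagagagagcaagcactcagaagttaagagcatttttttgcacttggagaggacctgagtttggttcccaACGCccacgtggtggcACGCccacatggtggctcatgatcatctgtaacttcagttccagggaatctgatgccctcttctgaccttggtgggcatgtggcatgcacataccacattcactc
Psmb8: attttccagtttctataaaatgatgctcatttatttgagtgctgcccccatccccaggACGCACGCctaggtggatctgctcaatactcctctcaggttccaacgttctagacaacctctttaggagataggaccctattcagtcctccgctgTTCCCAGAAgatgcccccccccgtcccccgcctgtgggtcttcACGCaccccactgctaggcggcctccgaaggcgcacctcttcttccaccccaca
ACGC stood 2 times before Psmb11, at bases -239 to -236 and -62 to -59 from the start, both on the other strand. The one nearer to the start lies in the stretch that the study edited as its Foxn1-binding site. The study places that site at another distance from the start. It reported Foxn1 binding there in cortical thymic epithelial cells, and less β5t in mice homozygous for a mutation of the site. ACGC stood 2 times before Psmb9, 2 times before Psmb10 and 3 times before Psmb8, and was absent from the 250 bases before Psmb6. These 4 letters stand in the 250 bases before the start in 49.8% of 32851 promoter windows. Psmb5 holds them there too. The longer Foxn1 motif was not searched, and a part of these letters in the ratios was not tested. The interferon response motif (2.98% of the windows over the same bases) was not found before Psmb5, Psmb6, Psmb8, Psmb9, Psmb10 or Psmb11. TTCNNNGAA (7.02%) was found before Psmb8 alone of these 6. TGACNNNGC, the core of the antioxidant response element (10.2%), was found before Psmb5 and Psmb6. All motifs were searched on both strands, and a match is a description of the letters.

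The rest of the core particle comprised the α subunits, the testis form Psma8 included, and the non-catalytic β subunits. None of these 12 genes was called in either direction by limma; at an unadjusted p under 0.05, 3 were higher and 0 lower, and under the alternatives between 0 and 3 were called higher. Their ratios ran from -0.26 (Psma3) to 0.94 (Psma1), with a median of 0.41. Of the genes for assembly and activators of the proteasome (among them the chaperone Pomp and the PA28 subunit Psme1), 8 of 10 were tested and 0 were called, with 0 also at an unadjusted p under 0.05 in limma; the ratios ran from -0.53 to 0.25. The ratios of Psmb9, Psmb10 and Psmb11 lay above all of these.

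Of the genes for class I peptide loading, 9 of 10 were tested, 1 was called higher and 2 lower, with a median of 0.43; without the pairing by array 0 were called. B2m, the light chain of class I molecules, was higher in RTOC, with a log2 ratio of 0.97 ± 0.05 (limma, adjusted p = 0.0383). Its other probes gave 1.28, which was called, and 0.83, which was not. The chaperones Calr and Pdia3 were lower in RTOC, with log2 ratios of -1.04 ± 0.10 (limma, adjusted p = 0.0332) and -0.90 ± 0.16 (limma, adjusted p = 0.0492). None of the 3 is a difference of the size seen for Psmb9.

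Of the 15 genes of the interferon gamma pathway, 14 were tested, and 7 were higher and 0 lower by limma. At an unadjusted p under 0.05 in limma 8 were higher and 0 lower, and the median ratio was 1.09. With normexp and either loess or median centring 5 were called higher, and without the pairing by array 6. Ifng itself was not well above background in any channel. Ciita, the activator of class II genes, was higher in RTOC, with a log2 ratio of 3.62 ± 0.21 (limma, adjusted p = 0.00172). The chemokine gene Cxcl9 was called higher on its quantile normalized ratio (limma, adjusted p = 0.0022). Its 2D signal did not stand well above background on either array. Between normexp-corrected channel levels Cxcl9 was at least 1.35-fold higher in RTOC, a bound without a test of its own. Gbp3, a guanylate-binding protein, was near the lower end of the 7, with 1.42 ± 0.16 (limma, adjusted p = 0.0142). Psmb8 is induced by the same pathway and stood at 0.79. The part of this pathway in the ratios of the subunits was not tested.

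All 10 genes of cortical thymic epithelium were higher, beside 16.6% of all genes tested by their brightest probe, and their median was 4.38. With normexp and median centring 9 of them were called. The study had picked Foxn1 and Tbata (its Spatial) from these same arrays for behaving like β5t. This list was also chosen with earlier results of these data known, so its count is a description. With dim probes kept in the fit, 0 genes of this or the other lists were called. The highest were Ccl25, a chemokine that attracts thymocyte progenitors, at 6.96 ± 0.44 (limma, adjusted p = 0.00161), and Prss16, the thymus-specific serine protease, at 5.29 ± 0.08 (limma, adjusted p = 0.00161), and the lowest were Foxn1, the master regulator of thymic epithelium, and Ctsl, the protease that makes class II peptides there, at 3.08 ± 0.44 (limma, adjusted p = 0.00247). Of the 3 probes of Ccl25, the dimmest gave 0.78 and was not called. The ratio of Psmb10 differed from that of Foxn1 by 0.03 ± 0.16, and those of Psmb9 and Psmb11 exceeded it by 1.26 ± 0.24 and 1.25 ± 0.17. Psmb9 and Psmb11 lay between the lowest and the median of the list.

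**Figure D4:**
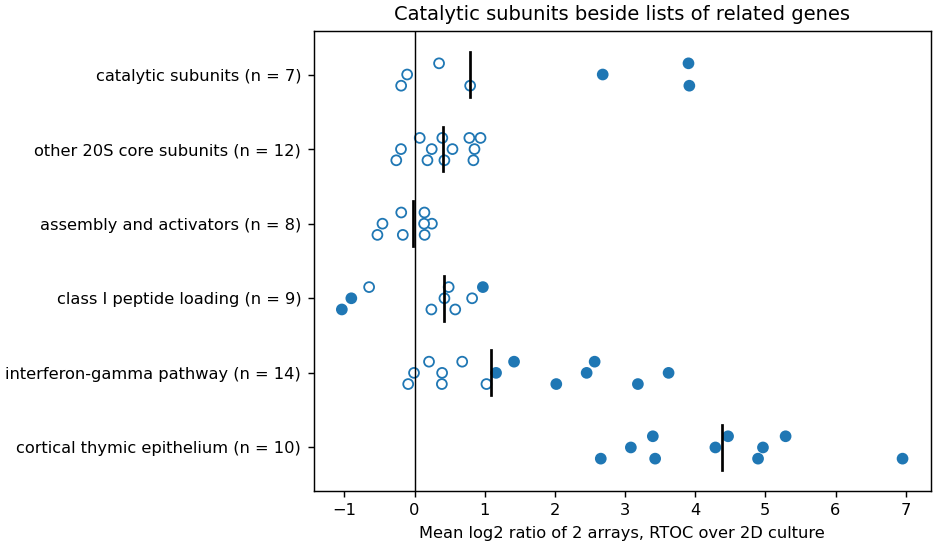
Mean log2 ratio of the 2 arrays for the 7 catalytic subunits and for 5 lists of related genes, 1 point per gene (its brightest probe), filled where limma's adjusted p was under 0.05, with the median as a bar. The catalytic subunits split into 3 genes at 2.68 and above and 4 at 0.79 and below, while the other core subunits stay between -0.26 and 0.94 and the genes of cortical epithelium lie at 2.65 and above.

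Among markers of cell types, those called for macrophages and dendritic cells, haematopoietic cells and endothelium were all higher in RTOC. Those called for epithelium, medullary epithelium and fibroblasts went both ways. In bulk RNA a higher share of cells that express a gene and a higher level per cell cannot be told apart. The sums of signals given below are set mostly by the brightest probes. Signals of different probes cannot be ranked against each other, so a sum does not measure the number of cells. Of 6 epithelial markers, 1 was higher, Krt5 (2.90), and 2 lower, Krt14 (-1.86) and Cdh1 (-1.28). Krt18 (0.69), Krt8 (0.28) and Epcam (-0.70) were not called. The summed normalized signals of the 6 were 305834 and 632910 in 2D culture and 645569 and 722653 in RTOC (E14.5 and E15.5). Krt8, Krt18 and Krt5 made up most of these sums, while Epcam and Cdh1 had lower signals in RTOC. Of 6 markers of macrophages and dendritic cells 3 were higher and 0 lower, with sums of 11652 and 11914 in 2D culture and 71752 and 84075 in RTOC. Cd74 gave 3.28 and Adgre1 3.01, and Cd74 and Adgre1 made up most of these sums. Cd74 is the invariant chain of class II molecules, and the study measured class II on thymic epithelial cells too. Cd74 therefore does not mark macrophages and dendritic cells alone. Csf1r was called higher with a smaller ratio. The other markers of this list, Cd68 (0.61), Itgax (-0.04) and Itgam (-0.61), were not called. Of 5 tested haematopoietic markers 2 were higher and 0 lower, with sums of 1469 and 1744 against 5426 and 3475, while Cd3e gave -0.08. Of 6 endothelial markers 5 were higher and 0 lower, with sums of 1574 and 672 against 6924 and 10521, while the 2D signals of Pecam1, Cdh5 and Tek did not stand well above background on either array. With normexp and loess 3 endothelial markers were called higher. Of 8 markers of fibroblasts and mesenchyme 3 were higher and 4 lower, with sums of 431114 and 330766 against 272544 and 291534. Of 5 tested markers of medullary epithelium 3 were higher (Aire, Fezf2 and Tnfrsf11a) and 2 lower (Cldn3 at -3.26 and Cldn4 at -4.26). Their sums were 16789 and 39532 against 2733 and 4101. Cldn3 and Cldn4 made up most of the 2D sums, so the lower sums in RTOC come from these 2 genes. The 2D signals of Aire and Fezf2 did not stand well above background on either array. With normexp and loess 1 marker of medullary epithelium was called higher, with normexp and median centring 0 were, and 2 were lower in both. With normexp and loess 1 haematopoietic marker was called higher and 2 fibroblast markers lower. The part of these markers' cells in the ratios of the catalytic subunits was not tested.

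**Figure D5:**
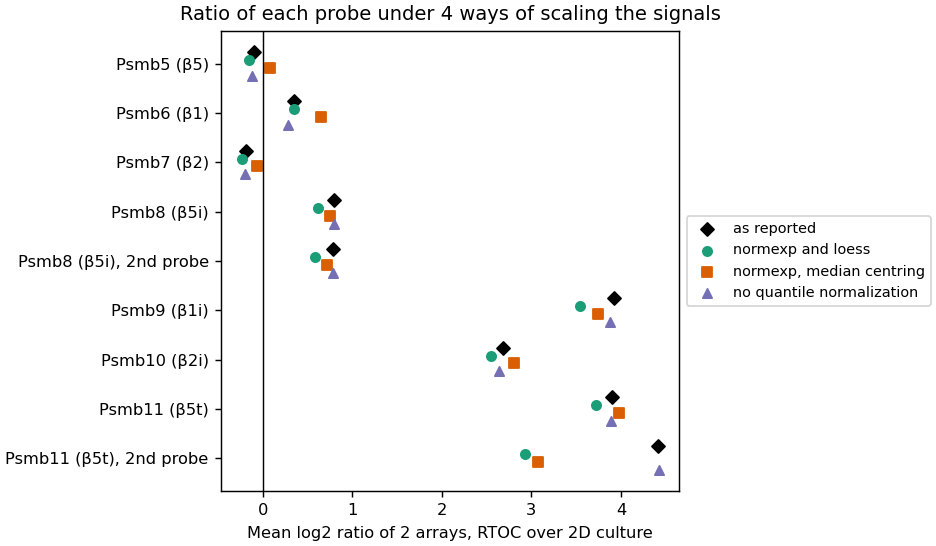
Mean log2 ratio of each probe of the catalytic subunits under 4 ways of scaling the signals: quantile normalization as reported (diamond), normexp with loess (circle), normexp with median centring (square), and the processed signals without quantile normalization (triangle). The largest shift is at the dimmer Psmb11 probe, from 4.41 to 2.93, and only Psmb5 crosses 0.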

How the data were processed

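RNA of RTOC (Cy5) and 2D culture (Cy3) was measured on 2 Agilent whole mouse genome arrays. Per the file headers, Feature Extraction 9.1.3.1 made the deposited processed signals (intensity corrected for background, spatial trend and dye) and the raw mean and background intensities; the submitters' processing notes name version 11.5.1.1. The authors' methods add quantile normalization. The deposited series table holds a log10 ratio of the same processed signals, unnormalized between arrays, and was used as an alternative; its direction is Cy5 over Cy3. The log ratio and p-value columns of the scanner files were not used in a test. The labels name TRIzol for the RNA and the methods a column kit.

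Control spots and outlier spots (5 at E14.5, 1 at E15.5) were excluded. Quantile normalization was run over the 4 channels, and spots of a probe were averaged. Of 41174 probes, 22951 were named by RefSeq accession, 6659 by symbol and 3109 by an older symbol (GRCm38.p6), and 8455 kept the name in the files. Probes with at least 1 channel well above background on each array (23685) were tested with limma 3.58.1 in R 4.3.3 (intercept, eBayes, two-sided, Benjamini-Hochberg, threshold 0.05). Only 1 residual degree of freedom was left, so the moderated variance comes mostly from all probes together. A gene is represented by its brightest probe. The code was tested on simulated data. The members and lists were chosen with earlier results of these data known. Named are all member probes, up to 2 highest and 2 lowest called genes of each list of related genes, Foxn1, and the 5 genes nearest to Psmb11; others are marked as chosen later or are list extremes and markers. Some genes that this rule names are not reported here.

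Alternatives were normexp (offset 50) with loess or median centring, no quantile normalization, the series values, other filters, leaving out each array, other probes of a gene, the methods' t-test, moderation with a variance trend and robust fitting, and no replicate block. The number of arrays limits the precision. Promoter and locus data came from RefSeq tables of GRCm38.p6.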

Additional observations from a re-analysis of the deposited data

Results flagged for a closer look

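The log2 ratio of Psmb5 (RTOC to 2D) was 0.071 at E14.5 and -0.28 at E15.5, and that of Psmb7 was 0.29 and -0.67. Both changed sign between the stages, with 1 array per stage, so the difference was not tested. With normexp, Psmb5 kept its sign, at -0.0085 and -0.30 with loess, and at 0.03 and 0.12 with median centring (E14.5 and E15.5). Psmb7 changed sign there too, with 0.18 and -0.65, and 0.16 and -0.30. Opposite signs were found at 19.9% of all tested probes.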

How the results depend on the processing

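The ratios of Psmb9, Psmb10 and Psmb11 stayed positive under every alternative that was run. With both arrays they ran from 3.55 to 3.92, from 2.54 to 2.81 and, for the brighter Psmb11 probe, from 3.72 to 3.98. The count of subunits called higher was 3, and it was 4 with trend and robust fitting, where Psmb8 passed. It was 0 with no filter on dim probes, where Psmb11 gave 3.90 with an adjusted p of 0.117 in limma and 0 of 41168 probes were called (10666 at an unadjusted p under 0.05). It was also 0 by the methods' t-test once adjusted by Benjamini-Hochberg, where Psmb11 gave 3.90 with an adjusted p of 0.327 and 0 probes were called. The count of subunits called lower was 0 throughout. Over all probes, 6820 calls became 3716 with normexp and loess, 2904 with normexp and median centring, 4033 with no replicate block (the 4 channels fitted as 2 against 2, without pairing by array) and 3539 with the methods' t-test at an unadjusted p under 0.05. The fit with no replicate block changed no call among the subunits. With median centring the median of all tested probes was 0.12, beside -0.0071, and 76.4% of its calls were higher in RTOC, beside 52.9%; there Psmb5 turned to 0.074. Without the E15.5 array Psmb5 was 0.071 and Psmb7 0.29, and without the E14.5 array they were -0.28 and -0.67; with either array left out, Psmb11 ran from 3.76 to 4.05, and no test is possible with 1 array. The cause of these shifts was not tested. A slide or scan block was not run, as both arrays lay on 1 slide and in 1 scan. Each ratio carries the dye difference, since no array has the dyes swapped.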
